A study of Mus musculus with 12 samples.

Results

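The genes described here code for the protein parts of the mitochondrial ribosome in mouse gastruloids. They were taken by symbol, *Mrpl* for the large subunit and *Mrps* for the small subunit, each followed by a number and at most 1 letter from a to c. This gave 78 genes, 49 *Mrpl* and 29 *Mrps*, of the 38911 genes to which the deposited transcripts belong. All 78 passed the filter on low counts, among 16966 genes tested.

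Gastruloids, aggregates of mouse E14TG2a embryonic stem (ES) cells that form germ layers and a body axis, were started from 200 cells of a culture kept in 2i and LIF. The E14TG2a line is a single established line, so that every group carries the same genotype. On day 4, after a treatment that began on day 3 per the series' design text, polyA RNA was sequenced from gastruloids in 0x glucose (0 mM), 1x glucose (21.25 mM, the control), 3x glucose (63.75 mM) or 5 mM 2-DG in 1x glucose. 2-DG (2-deoxy-D-glucose) is a glucose analog that hexokinase phosphorylates but glycolysis cannot use, and it also enters sugar pathways in place of mannose. Each of the 4 groups held 3 libraries, from ES cell passages 13, 15 and 16, and each library pooled gastruloids.

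Mitochondria keep a small genome of their own, and the mitochondrial ribosome, or mitoribosome, makes the proteins that this genome codes for, all of them parts of the respiratory chain and the ATP synthase. Its ribosomal RNAs come from mitochondrial DNA, whereas all of its proteins are coded in the nucleus, made in the cytosol and imported. The small subunit reads the mRNA at the decoding center, and the large subunit joins amino acids and holds the stalk that recruits the translation factors. Symbols do not always match the place of a protein in the ribosome. *Mrps30* and *Mrps18a* carry small subunit symbols although their proteins sit in the large subunit, and the product of *Mrps36* is known as a part of the 2-oxoglutarate dehydrogenase complex of the citric acid cycle.

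The 12 libraries held 31902471 to 45956080 counts, and the 78 genes took 0.380% to 0.444% of them. Levels are given as CPM, each count as a share of the library scaled to a fixed total, after TMM scaling, which corrects for differences in composition between libraries. In 1x glucose the mean level of a member ran from 21.4 CPM (*Mrpl55*) to 133 CPM (*Mrpl12*, a protein of the stalk), with a median of 48.2 CPM. CPM grows with transcript length, so levels of different genes were compared per kilobase, for the 73 members whose annotated transcript was no longer than the gene. Per kilobase, the highest level in 1x glucose was that of *Mrpl42* at 108 CPM per kb, ahead of *Mrpl12* at 101, *Mrpl52* at 91.1, *Mrps21* at 82.9 and *Mrpl30* at 76.4 CPM per kb. The lowest were *Mrpl48* at 6.49, *Mrpl47* at 9.51, *Mrpl17* at 9.56, *Mrps14* at 10.5 and *Mrpl1* at 10.6 CPM per kb. The order depends on which transcript is taken as the length. With the median length of the coding transcripts the values of *Mrpl42*, *Mrpl12*, *Mrpl47* and *Mrpl1* were the same, whereas *Mrpl17* moved to 93.9 and *Mrpl48* to 32.1 CPM per kb. On that scale *Mrpl57*, which has no value on the first, stood lowest at 7.90 CPM per kb.

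The members lie on 17 chromosomes, and 33 of the 78 start head to head with another protein-coding gene within 1000 bp, so that both start sites lie in a short shared stretch of DNA. *Mrpl46* and *Mrps11*, a large and a small subunit gene on chromosome 7, face each other in this way, and *Mrps12*, which codes for a protein of the decoding center, faces *Sars2*, the mitochondrial seryl-tRNA synthetase. Promoter windows from RefSeq (GRCm38.p6, 250 bases before the start site to 50 after) were found for 69 of the 78 members. They were searched on both strands for the letters GCGCATGC (a core of the site of NRF1, a regulator of nuclear genes for mitochondria), CCGGAAG (a core of the site of ETS factors such as GABP) and AAGATGGC (a core of the site of YY1). None of the 3 contains another, and a window may hold several. The ETS letters were in 26 of the 69 members (37.7%), against 9.93% of all 27025 genes with a window. The YY1 letters were in 12 (17.4%), against 3.19%, and the NRF1 letters in 8 (11.6%), against 3.05%. The 27025 genes include genes that did not pass the filter on low counts, whereas all members did. No background of expressed genes alone was taken. A match of letters is a description of the window and shows no binding.

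Windows of 3 members are shown because the comparisons below turn on them. *Mrpl2* had the lowest log2 fold change in 2-DG of all members, *Mrps18b* was higher in 2-DG than in either 1x or 0x glucose, and *Mrpl10* had the smallest p between passages. *Mrpl45*, not shown, was also higher in 2-DG than in both, and none of the letters were found in its promoter. Capitals mark the letters of the 3 motifs on either strand. The *Mrpl2* window, the first of 3 listed for this gene, holds none of them. The *Mrps18b* window holds the NRF1 letters at both ends and the ETS letters at its end, and the *Mrpl10* window holds the NRF1 letters 134 bases before the start site.
Mrpl2 promoter, chr17:46645971-46646270, plus strand: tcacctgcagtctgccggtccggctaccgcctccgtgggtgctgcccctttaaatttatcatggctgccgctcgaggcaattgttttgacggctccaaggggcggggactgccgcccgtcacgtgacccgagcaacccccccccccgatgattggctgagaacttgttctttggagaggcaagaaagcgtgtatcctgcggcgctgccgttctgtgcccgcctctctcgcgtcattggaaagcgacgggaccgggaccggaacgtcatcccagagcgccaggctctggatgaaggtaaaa
Mrps18b promoter, chr17:35916391-35916690, minus strand: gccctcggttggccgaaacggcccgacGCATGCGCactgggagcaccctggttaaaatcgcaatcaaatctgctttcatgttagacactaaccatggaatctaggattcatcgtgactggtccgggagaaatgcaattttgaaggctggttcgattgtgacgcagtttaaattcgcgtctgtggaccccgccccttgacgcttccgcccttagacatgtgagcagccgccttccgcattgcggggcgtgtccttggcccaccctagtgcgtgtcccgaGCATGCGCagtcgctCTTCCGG
Mrpl10 promoter, chr11:97041332-97041631, plus strand: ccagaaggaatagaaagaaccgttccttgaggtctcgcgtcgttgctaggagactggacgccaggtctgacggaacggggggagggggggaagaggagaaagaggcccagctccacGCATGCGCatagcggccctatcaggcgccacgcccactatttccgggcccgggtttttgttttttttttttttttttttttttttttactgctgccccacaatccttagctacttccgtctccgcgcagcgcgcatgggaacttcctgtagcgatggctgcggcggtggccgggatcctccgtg

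The first comparison asked how the mitoribosome genes responded to 2-DG. Of the 78 members, 14 passed the test against 1x glucose, 11 lower and 3 higher, and the changes were small, from -0.44 (*Mrpl2*) to 0.21 (*Mrps28*) on the log2 scale. A member was called when its adjusted p was under 0.05 in edgeR's quasi-likelihood test, over all 16966 genes. In this comparison 17.6% of all genes were called, 8.51% lower and 9.12% higher, so that 14 of 78 (17.9%) is near the background. The called members split 11 to 3, where all genes split 1443 lower to 1547 higher. The fitted log2 fold change was below 0 in 60 of the 78 members, with a median of -0.08, whereas 49.7% of all genes were below 0 and their median was 0.00. The members above 0 were 18, and 10 to 26 when any 1 library of these groups was left out, with medians from -0.11 to -0.06. With the most abundant transcript alone 29 were above 0 (median -0.06). By subunit symbol the counts were 7 lower and 1 higher of 49 *Mrpl* genes (median -0.08) and 4 lower and 2 higher of 29 *Mrps* genes (median -0.07).

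**Figure D1:**
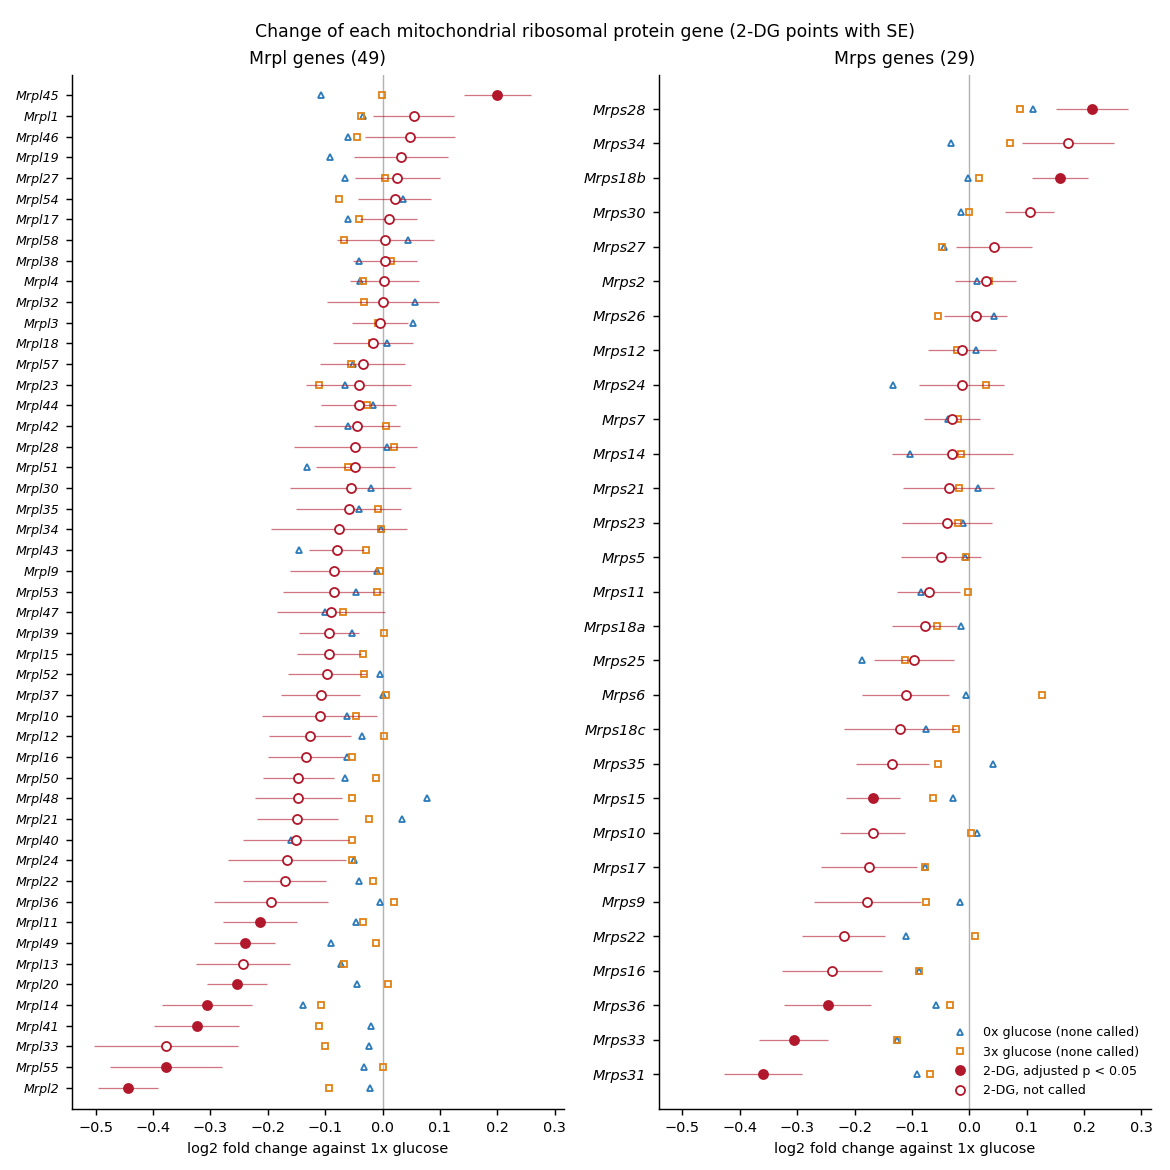
Fitted log2 fold change against 1x glucose (x axis) of each of the 49 *Mrpl* and 29 *Mrps* genes (y axis, sorted by the value in 2-DG). Circles with SE bars are 2-DG, filled where the adjusted p was under 0.05, triangles are 0x glucose and squares 3x glucose; the filled circles are 11 genes left of 0 and 3 right of it.

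The clearest change was that of *Mrpl2* (chromosome 17, 46646172 to 46650132, GRCm38), which codes for a protein of the core of the large subunit. It stood at 57.8, 57.0 and 54.6 CPM in 1x glucose at passages 13, 15 and 16, and at 43.3, 42.3 and 38.9 CPM in 2-DG. The groups lay well apart, and *Mrpl2* fell by 0.44 on the log2 scale (SE 0.05, adjusted p = 0.000551). With passage as a block the adjusted p was 2.1e-05. It was the only member that passed the test under every alternative, with adjusted p-values from 2.23e-13 to 0.0142. Its levels in 0x glucose were 57.4, 53.5 and 55.8 CPM and in 3x glucose 53.4, 52.7 and 52.6 CPM, all above the 2-DG libraries. *Klc4*, a kinesin light chain gene that starts head to head with *Mrpl2*, fell as well, by 0.67 on the log2 scale (SE 0.10, adjusted p = 0.00217).

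*Mrps31* (chromosome 8), a small subunit gene, stood at 44.6, 49.4 and 44.8 CPM in 1x glucose and at 33.7, 35.7 and 38.7 CPM in 2-DG. The ranges did not overlap, and the log2 fold change was -0.36 (SE 0.07, adjusted p = 0.00558). Its 3 listed transcripts shared the counts unevenly between libraries, and the most abundant of them took from 25.7% (1x glucose, passage 16) to 81.1% (1x glucose, passage 15) of the gene. When only that transcript was tested, the log2 fold change was 0.06 (adjusted p = 0.976, with 2.95e-05 to 0.976 over all alternatives), so that the fall was seen in the sum over transcripts.

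*Mrpl55*, a large subunit gene, stood at 23.5, 20.8 and 19.8 CPM in 1x glucose and at 18.2, 15.6 and 15.5 CPM in 2-DG. Its log2 fold change was -0.38 (SE 0.10, adjusted p = 0.0233), and the lowest 1x library lay above the highest 2-DG library. Its call was lost in 6 of 12 alternatives, with adjusted p-values from 0.00164 to 0.524. *Mrpl41* stood at 28.9, 26.4 and 25.1 CPM in 1x glucose and 21.5, 20.4 and 22.3 CPM in 2-DG, a log2 fold change of -0.32 (SE 0.07, adjusted p = 0.014). *Mrpl20* stood at 59.9, 59.6 and 54.4 CPM in 1x glucose and 48.6, 47.2 and 49.997 CPM in 2-DG, a log2 fold change of -0.25 (SE 0.05, adjusted p = 0.00842). *Mrpl41* and *Mrpl20* both code for large subunit proteins, and in neither did the groups overlap. The adjusted p ran from 0.000733 to 0.0832 for *Mrpl41* (lost in 3 of 12 alternatives) and from 0.000125 to 0.058 for *Mrpl20* (lost in 1).

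*Mrps33*, a small subunit gene, stood at 30.8, 31.97 and 29.8 CPM in 1x glucose and at 24.9, 25.5 and 24.5 CPM in 2-DG (log2 fold change -0.31, SE 0.06, adjusted p = 0.00673). *Mrpl14*, a large subunit gene, stood at 24.0, 21.1 and 20.96 CPM and at 18.2, 17.5 and 17.7 CPM (log2 fold change -0.31, SE 0.08, adjusted p = 0.0233). In both genes the 3 libraries in 2-DG lay close together and below every 1x library. The call of *Mrps33* was lost in 1 of 12 alternatives (adjusted p from 4.69e-05 to 0.0812) and that of *Mrpl14* in 6 (0.00243 to 0.157). The other genes that fell were *Mrps36* (-0.25), *Mrpl49* (-0.24), *Mrpl11* (-0.21) and *Mrps15* (-0.17), with adjusted p-values of 0.0455, 0.0128, 0.043 and 0.0339 and no overlap of the groups. These calls were lost in 8, 4, 8 and 6 of 12 alternatives, and the adjusted p reached 0.651, 0.0674, 0.233 and 0.152. The product of *Mrps36* is known outside the ribosome.

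The exons of *Mrpl49* overlap those of *Syvn1* on the opposite strand, and the deposited counts do not say whether strand was used, so the value of *Mrpl49* is uncertain. *Syvn1*, which codes for an E3 ubiquitin ligase of ER-associated degradation, rose by 1.08 on the log2 scale in 2-DG (SE 0.13, adjusted p = 0.000642) while *Mrpl49* fell. *Fau*, which starts head to head with *Mrpl49*, had a log2 fold change of 0.08 (adjusted p = 0.664). *Mrpl14* likewise shares exon positions with *Tmem63b* on the opposite strand, whose log2 fold change was 0.12 (adjusted p = 0.39). In all, 28 of the 78 members overlap exons of another gene on the opposite strand and are uncertain in the same way. Of the members named here, they include *Mrps18b* (with *Gm16279*), *Mrpl10* (*Gm11574*), *Mrpl24* (*Rrnad1*), *Mrpl43* (*Twnk*), *Mrps25* (*Nr2c2*) and *Mrpl19* (*Gcfc2*). *Mrpl46* and *Mrps11* overlap each other, and *Mrpl12*, *Mrpl47*, *Mrpl48*, *Mrpl58* and *Mrps30* also overlap another gene in this way.

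*Mrpl45*, which codes for a large subunit protein on the side of the exit tunnel that faces the inner membrane, stood at 112, 107 and 111 CPM in 1x glucose and at 122, 121 and 137 CPM in 2-DG. It rose by 0.20 on the log2 scale (SE 0.06, adjusted p = 0.0402). *Mrps28*, a small subunit gene, stood at 26.9, 26.0 and 24.4 CPM and at 30.7, 29.7 and 29.4 CPM, and rose by 0.21 (SE 0.06, adjusted p = 0.0399). *Mrps18b*, a small subunit gene and 1 of 3 related genes, stood at 51.3, 51.7 and 48.1 CPM and at 55.5, 56.7 and 56.5 CPM, and rose by 0.16 (SE 0.05, adjusted p = 0.0475). These 3 lie near the threshold, and their calls were lost in 9, 8 and 9 of 12 alternatives, where the adjusted p reached 0.17, 0.181 and 0.144. The related genes *Mrps18a* and *Mrps18c* had log2 fold changes of -0.08 (adjusted p = 0.389) and -0.12 (adjusted p = 0.446).

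**Figure D2:**
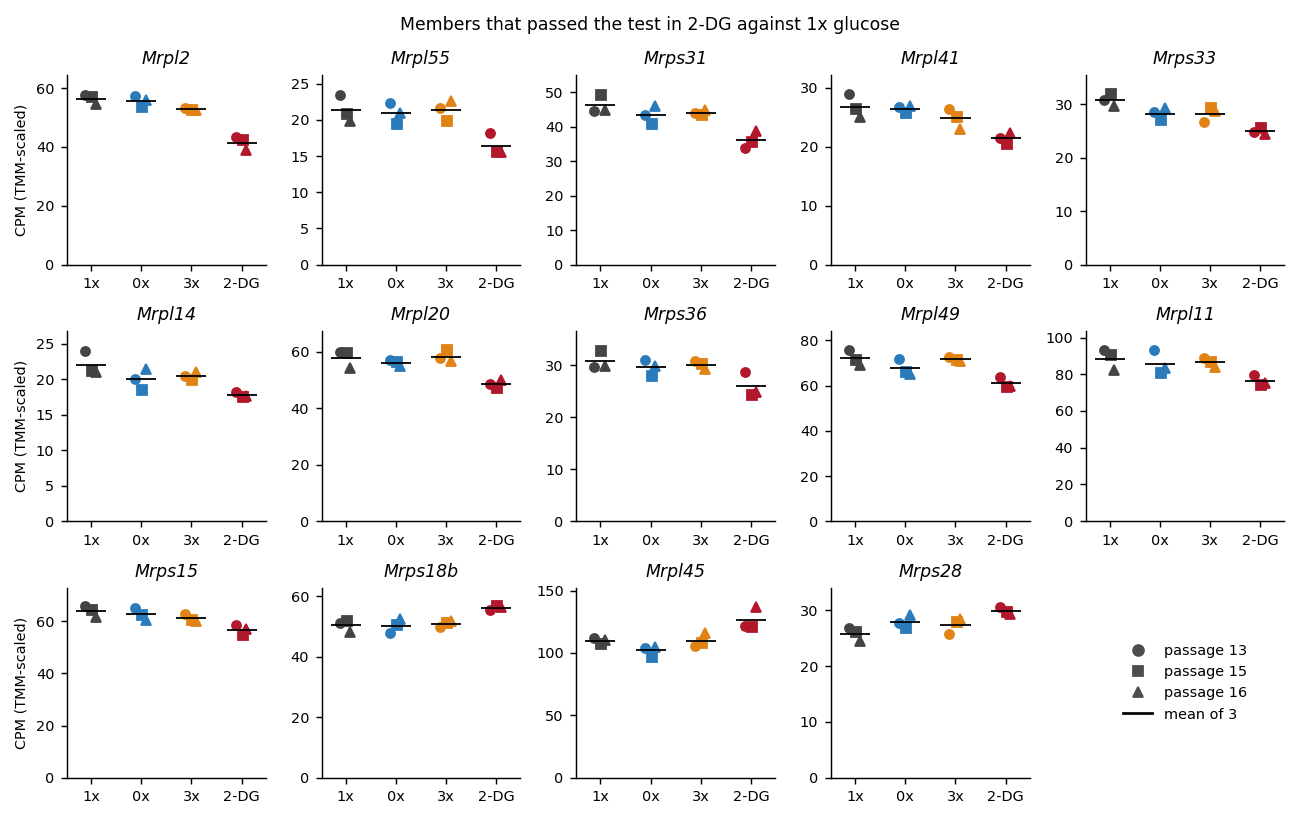
TMM-scaled CPM (y axis, from 0) of the 14 members that passed the test in 2-DG against 1x glucose, by treatment (x axis), with a symbol for each passage and a bar at the mean of 3 libraries. In each panel the 3 libraries in 2-DG lie on one side of the 3 in 1x glucose, as for *Mrpl2*, where 38.9 to 43.3 CPM stands below 54.6 to 57.8 CPM.

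All 14 called members moved the same way in each of the 3 passages, and in all 14 the libraries of the 2 groups did not overlap. Groups that do not overlap move the same way in every passage by necessity. The 14 were called from these same libraries, so neither is separate evidence of a change. Over all 78 members, 18 had every 2-DG library below every 1x library, beside 17.2% of all genes, and 4 had every one above, beside 18.3%. With passage as a replicate block (a paired comparison) 32 members were called, 27 lower and 5 higher, beside 41.3% of all genes (20.2% lower and 21.1% higher). All 14 members called without the block were called with it as well. Without the block the count changed with single libraries, and fell to 7 without 1x glucose of passage 13, 7 without 1x glucose of passage 15, 5 without 2-DG of passage 16 and 4 without 2-DG of passage 15. The share of all genes called fell as well in these fits, to 13.1%, 10.04%, 11.9% and 10.09%. When only the most abundant transcript of each gene was counted, 1 member was called, beside 3.88% of all genes. The largest fold among those added by the block was that of *Mrpl33*, which stood at 25.4, 23.1 and 21.7 CPM in 1x glucose and 20.3, 16.4 and 17.3 CPM in 2-DG (log2 fold change -0.38, SE 0.13, adjusted p = 0.0624, and 0.0021 with the block). This gene lies below 1x glucose in every passage, and passage 13 was its highest library in both groups. Its exons overlap those of *Gm43809* on the same strand, so that its counts are uncertain. In all, 8 of the 78 members have such an overlap, among them *Mrps6*, *Mrps18c* and *Mrpl51*.

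Members known for their roles were mostly not called. *Mrpl12* and *Mrpl10*, which form the stalk, had log2 fold changes of -0.13 (SE 0.07, adjusted p = 0.256) and -0.11 (SE 0.10, adjusted p = 0.513). *Mrps12*, at the decoding center, had -0.01 (SE 0.06, adjusted p = 0.919), although *Sars2*, which starts head to head with it, rose by 0.34 (SE 0.06, adjusted p = 0.00433). *Mrpl58*, a peptidyl-tRNA hydrolase that became part of the ribosome, had 0.01 (SE 0.08, adjusted p = 0.979), and *Mrps30* had 0.11 (SE 0.04, adjusted p = 0.117, and 0.01 with the block). *Mrpl57*, a large subunit gene, had -0.03 (SE 0.07, adjusted p = 0.801). *Mrps6*, whose exons overlap on the same strand those of the inositol transporter gene *Slc5a3* so that its counts are uncertain, had -0.11 (SE 0.08, adjusted p = 0.358).

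The summed level of the members gives their size as a group. The 78 genes summed to 4151 ± 186 CPM (SD, n = 3) in 1x glucose, 4040 ± 140.3 in 0x glucose, 4081 ± 10.99 in 3x glucose and 3931 ± 101 CPM in 2-DG. The lowest 1x library (3950 CPM) lay below the highest 2-DG library (4034 CPM). Within each passage the 2-DG library lay below the 1x library, at 4034 against 4316 CPM in passage 13, 3831 against 4189 in passage 15 and 3928 against 3950 CPM in passage 16. The large and small subunit sums, taken apart, were also lower in 2-DG in each passage. Large and small subunit genes kept a ratio of summed levels of 1.90 to 1.94 in all 12 libraries. The ratio was 1.93, 1.94 and 1.91 in 1x glucose and 1.90, 1.90 and 1.91 in 2-DG. Before rounding every 2-DG value lay below every 1x value, and that of 0x glucose at passage 15 (1.90) was the lowest of all 12.

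Removal of glucose and its excess were compared with 1x glucose to ask whether supply alone moved these genes. No member was called in either comparison, and the background was 0.0118% of all genes in 0x glucose and 0% in 3x glucose. In 0x glucose the unadjusted p of edgeR was under 0.05 for 2 of 78 members, *Mrpl43* (log2 fold change -0.15) and *Mrps25* (-0.19), both named after their values were seen, and for 306 of all genes. In 3x glucose it was under 0.05 for 0 members and 178 genes. With passage as a replicate block it was under 0.05 for 10 members and 1591 of the 16966 genes in 0x glucose. In 3x glucose the block gave 2 members and 876 genes, and with it too no member was called in either comparison. DESeq2 called 0 members in both comparisons. In 0x glucose 62 of 78 members lay below 0 with a median of -0.04, and with the block 17 lay above 0 (median -0.04). Leaving out 1 library gave 9 (without 1x glucose of passage 16) to 36 (without 1x glucose of passage 13) above 0. The medians in these fits ran from -0.08 to -0.01. In 3x glucose the median was -0.03, and -0.02 with the block. Leaving out the same 2 libraries in turn gave the lowest and highest medians, -0.07 and 0.00. The fits without a library had no passage term, so that their passages were not balanced between the groups. *Mrps6*, the overlap partner of *Slc5a3*, had the highest log2 fold change in 3x glucose, 0.13 (SE 0.08), with 34.6, 39.3 and 41.5 CPM against 36.3, 33.8 and 35.6 CPM in 1x glucose, ranges that overlapped, and *Slc5a3* itself had 0.18 (SE 0.23).

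The comparison of 2-DG with 0x glucose, which shares its 2-DG libraries with the first comparison, set the inhibitor against the absence of glucose. It called 8 members, 6 lower and 2 higher, beside 18.9% of all genes (9.04% lower and 9.86% higher), so that the members' share was below the background. *Mrpl2* had -0.42 (SE 0.05, adjusted p = 0.000653), *Mrpl55* -0.35 (SE 0.10, adjusted p = 0.0315), *Mrpl41* -0.30 (SE 0.07, adjusted p = 0.0175), *Mrps31* -0.27 (SE 0.07, adjusted p = 0.02) and *Mrpl20* -0.21 (SE 0.05, adjusted p = 0.0185). *Mrps10*, a small subunit gene, stood at 50.9, 51.0 and 52.2 CPM in 0x glucose and at 44.9, 44.1 and 46.9 CPM in 2-DG, and completed the genes that fell (-0.18, SE 0.06, adjusted p = 0.0451). *Mrpl45* had 104, 96.9 and 105 CPM in 0x glucose, below every 2-DG library, and rose by 0.31 (SE 0.06, adjusted p = 0.00552), and *Mrps18b* rose by 0.16 (SE 0.05, adjusted p = 0.0427). Leaving out any 1 of these 6 libraries gave 2 (without 2-DG of passage 15) to 5 members, beside 11.8% to 15.1% of all genes. With passage as a replicate block (paired) 25 members were called, 20 lower and 5 higher, beside 43.1% of all genes (21.5% in each direction).

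The promoters of the called members were then read beside those of the rest. Of the 11 members that fell in 2-DG, 2 held the letters of any of the 3 motifs, against 35 of the 56 members with a window that were not called and 38 of all 69. The ETS letters were in 1 of the 11 and in 24 of the 56. Of the 2 members that rose in 2-DG and have a window, 1 held any of the letters (*Mrps18b*) and *Mrpl45* held none. These counts were made after the calls were known and were not tested.

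The passages were compared over all treatments. Between the 3 passages, with treatment as a term in the fit, 32 of the 78 members were called, beside 46.2% of all genes, 22 of 49 *Mrpl* and 10 of 29 *Mrps* genes, and 18 without the 1x glucose library of passage 13, where the share of all genes was 34.0%. In passage 16 against 13, 36 members were called beside 40.2% of all genes, 29 lower and 7 higher beside 19.7% and 20.4%, and in passage 15 against 13, 29 were called beside 41.8%, 26 lower and 3 higher beside 20.9% and 20.8%. In passage 16 against 15 no member was called by edgeR, beside 4.2% of all genes, with 11 of 78 at an unadjusted p under 0.05 and 1 called with median-of-ratios factors. Passage cannot be told apart from the culture, day or plate of a set of libraries.

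The 6 members with the smallest p held both directions. *Mrpl10*, a stalk gene, stood at 74.1 to 80.6 CPM in the 4 libraries of passage 13, at 83.1 to 88.5 in passage 15 and at 86.6 to 95.4 CPM in passage 16, and the log2 difference of passage 16 from 13 was 0.26 (SE 0.03, adjusted p = 5.84e-05). The passage 13 libraries lay below all others whatever the treatment. *Mrpl28*, a large subunit gene, stood at 68.2 to 69.7 CPM in passage 13, at 56.2 to 60.9 in passage 15 and at 56.5 to 60.4 CPM in passage 16, a log2 difference of -0.26 (SE 0.03, adjusted p = 0.000112). Its passage 13 libraries lay above the rest by more than the spread within any passage.

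The other 4 were *Mrps5*, a small subunit gene (-0.16, SE 0.03), and the large subunit genes *Mrpl37* (0.15, SE 0.03), *Mrpl24* (-0.24, SE 0.04) and *Mrpl40* (-0.18, SE 0.04), in passage 16 against 13. The adjusted p of the test over the 3 passages was 0.000135 for *Mrpl10*, 0.000163 for *Mrpl28*, 0.0016 for *Mrps5*, 0.00197 for *Mrpl37*, 0.00238 for *Mrpl24* and 0.00249 for *Mrpl40*. With the most abundant transcript alone those of *Mrpl10* and *Mrpl24* rose to 0.761 and 0.613, and the share of that transcript in *Mrpl10* ran from 60.3% to 96.0% of the gene's counts. The other members higher in passage 16 were *Mrpl34*, *Mrpl19*, *Mrpl51*, *Mrps35* and *Mrps30*, with log2 differences of 0.19, 0.19, 0.12, 0.11 and 0.07, and were named after their values were seen.

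**Figure D3:**
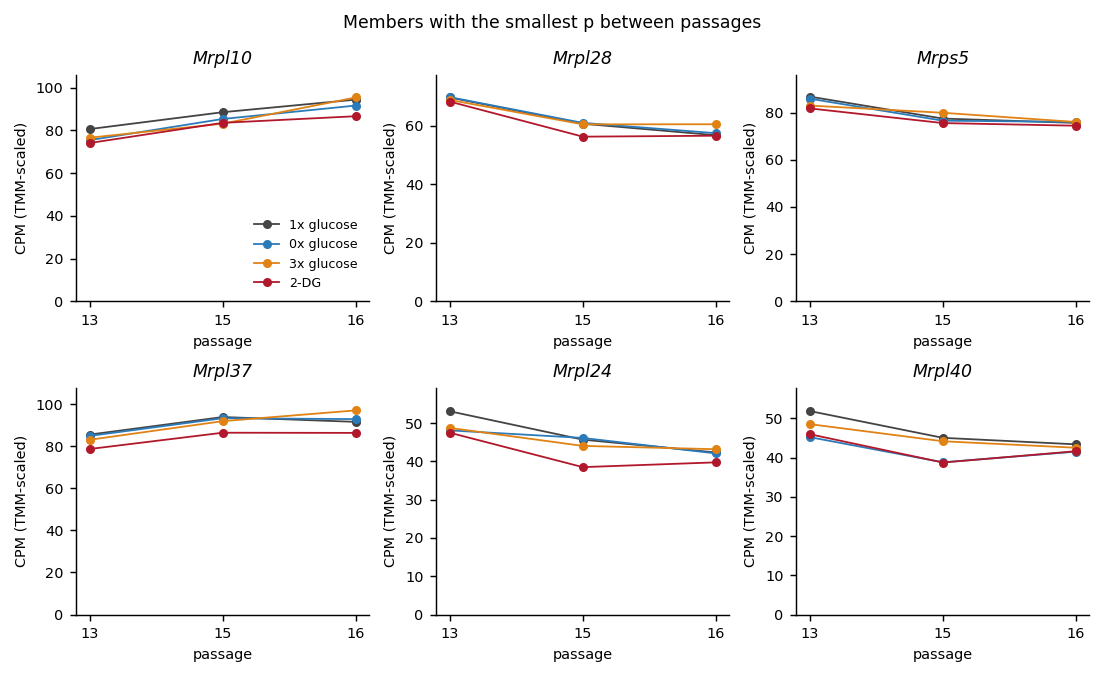
TMM-scaled CPM (y axis, from 0) of the 6 members with the smallest p between passages, by ES cell passage (x axis, in order but not to scale), with a line for each treatment joining its 3 libraries. *Mrpl10* and *Mrpl37* are lowest at passage 13 in all 4 treatments, and the other 4 genes are highest there.

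Gene groups that work with the mitoribosome are given by their counts in 2-DG against 1x glucose, where 8.51% of all genes were lower and 9.12% higher. In groups of 13 to 26 genes, 1 or 2 called in a direction are near that background. The 5 subunit genes named outside the *Mrpl* and *Mrps* series were not called, with log2 fold changes of 0.11 (*Dap3*), 0.01 (*Chchd1*), -0.15 (*Aurkaip1*), -0.13 (*Ptcd3*) and 0.14 (*Gadd45gip1*). Of 26 genes for mitoribosome assembly, 5 fell and 2 rose (median -0.12), with *Ybey*, an endoribonuclease, at -0.54 (SE 0.11, adjusted p = 0.00895) and *Mtg1*, a GTPase, at -0.47 (SE 0.11, adjusted p = 0.0158). Of 16 mitochondrial translation factors, 5 fell and 2 rose (median -0.13), the elongation factor *Tufm* at -0.26 (SE 0.05, adjusted p = 0.00474) and *Taco1*, the translational activator of COX1, at -0.27 (SE 0.07, adjusted p = 0.0313) among those that fell. Of 17 mitochondrial tRNA synthetases, 2 fell and 2 rose (median -0.06), with *Wars2*, the synthetase for tryptophan, at 0.37 (SE 0.07, adjusted p = 0.00758).

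Of 21 genes for the upkeep of mitochondrial DNA and RNA, 4 fell and 2 rose (median -0.09), with *Tefm*, the elongation factor of mitochondrial transcription, at -0.42 (SE 0.10) and *Hsd17b10*, a subunit of mitochondrial RNase P, at -0.33 (SE 0.09). Of 21 import genes, 4 fell and none rose (median -0.11), with the chaperone of the intermembrane space *Timm10* at -0.42 (SE 0.12) and *Tomm5* of the outer membrane translocase at -0.25 (SE 0.07). Of 13 mitochondrial chaperones and proteases, 2 fell and 1 rose (median -0.08), with the protease subunit *Clpp* at -0.23 (SE 0.06) and its partner *Clpx* at 0.19 (SE 0.06). Of 10 measured regulators of mitochondrial genes, *Mycn* fell by 0.66 (SE 0.11) and the coactivator gene *Ppargc1b* rose by 0.74 (SE 0.17). Each of these 8 genes had an adjusted p under 0.05.

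The genes of mitochondrial DNA code for what the mitoribosome makes. None of the 13 genes of mitochondrial DNA was called by edgeR in 2-DG, nor was any at an unadjusted p under 0.05 (0 of 13), with a median of -0.02, in RNA selected by its polyA tail. Of 96 tested nuclear genes for the respiratory chain and the ATP synthase, 3 fell and 3 rose, with a median of 0.00. Of 81 tested genes for cytosolic ribosomal proteins, 1 fell (*Rpl7l1*, whose product is a relative of a ribosomal protein) and none rose, with a median of 0.06. The medians of the *Mrpl* and *Mrps* genes, -0.08 and -0.07, thus lay below those of both ribosome and respiratory chain genes, and the difference between the groups was not tested. Between passages the pattern was another, with 65 of 81 cytosolic ribosomal protein genes (median -0.17) and 53 of 96 respiratory chain genes (median -0.14) lower in passage 16 than in 13, beside 29 of 78 members (median -0.08).

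**Figure D4:**
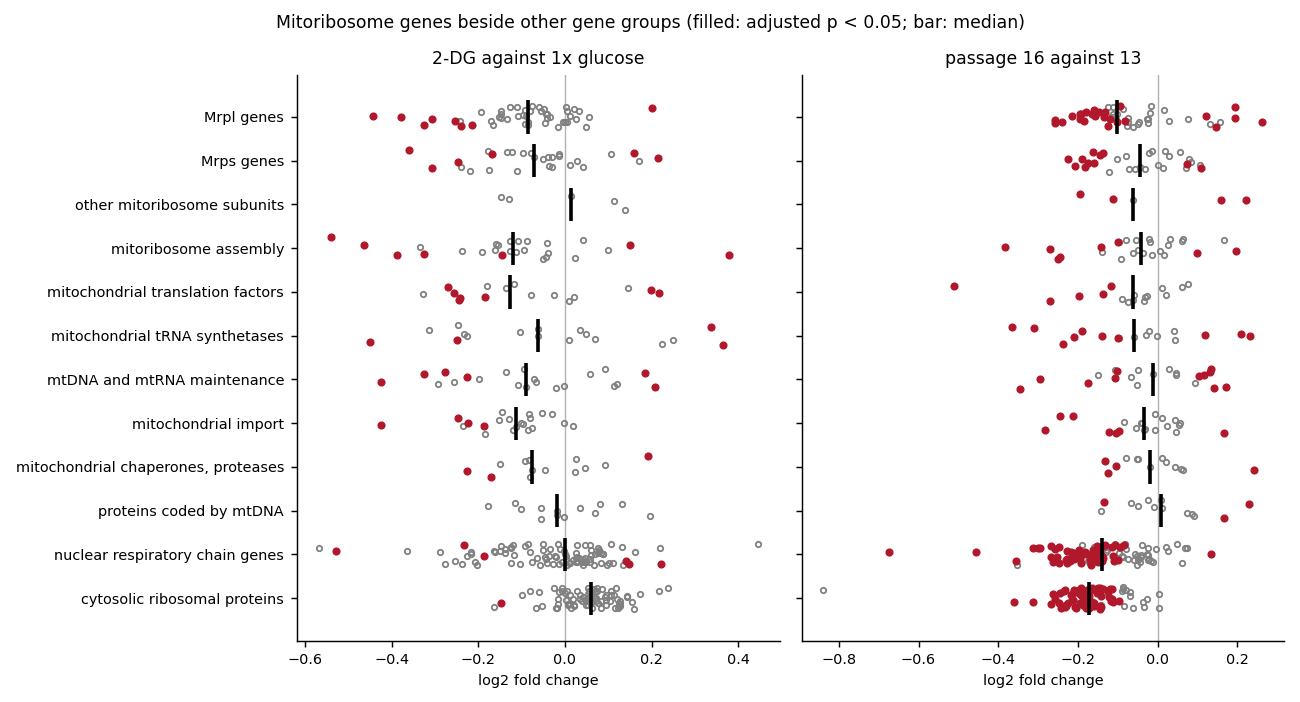
Fitted log2 fold change (x axis) of every tested gene in 12 groups (y axis), in 2-DG against 1x glucose (left) and in passage 16 against 13 (right), filled where the adjusted p was under 0.05, with a bar at the median. In 2-DG the medians of the *Mrpl* and *Mrps* genes are -0.08 and -0.07 and that of cytosolic ribosomal proteins is 0.06, and in passage 16 the last is -0.17.

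Markers of cell types moved with both treatment and passage, and in pooled tissue a lower count of cells of a type cannot be told apart from less RNA per cell. Primitive streak genes were *T*, *Mixl1*, *Eomes*, *Fgf8*, *Wnt3a* and *Evx1*. Neural genes were *Sox1*, *Sox2*, *Pax6*, *Sox3* and *Nes*. Mesoderm genes were *Tbx6*, *Msgn1*, *Meox1*, *Hes7* and *Dll1*. The list taken for endoderm was *Sox17*, *Foxa2*, *Cer1*, *Cdh1* and *Epcam*, and whether each is limited to endoderm was not checked. Pluripotency genes were *Pou5f1*, *Nanog*, *Zfp42*, *Esrrb* and *Klf4*. Each sum covers only these genes and is no measure of a whole cell type. Counts of markers as lower or higher are of those that passed the test, and the other markers were not called. Of all genes, 8.51% were called lower and 9.12% higher in 2-DG against 1x glucose. In passage 16 against 13 these shares were 19.7% and 20.4%. Of 6 primitive streak genes 4 were lower in 2-DG, and their summed level was 153 to 204 CPM there and 302 to 624 CPM in 1x glucose. Of 5 mesoderm genes 1 was lower in 2-DG, with a sum of 798 to 1313 CPM against 1013 to 1460 CPM in 1x glucose, lower in each passage. Of 5 endoderm genes 1 was higher in 2-DG, with a sum of 95.3 to 142 CPM against 63.6 to 200 CPM. Of 5 neural genes 2 were higher in 2-DG, with a sum of 167 to 335 CPM against 148 to 283 CPM. In passage 16, 5 of 5 neural genes were lower (sum 121 to 167 CPM, against 267 to 335 CPM in passage 13), 4 of 5 mesoderm genes higher (1190 to 1474 CPM against 798 to 1157 CPM) and 3 of 5 endoderm genes higher (110.0 to 128 CPM against 53.0 to 95.3 CPM). Of 6 primitive streak genes 2 were lower and 1 higher in passage 16, and their sum was 204 to 424 CPM against 166 to 634 CPM in passage 13. It was lower in passage 16 in 1x glucose (351 against 624 CPM), 0x glucose (309 against 618) and 3x glucose (424 against 634), and higher in 2-DG (204 against 166 CPM). Of 5 pluripotency genes 1 was higher in passage 16 and none was called in 2-DG, where their sum was 53.6 to 65.7 CPM against 34.8 to 48.5 CPM in 1x glucose. Every marker had counts in all 12 libraries, and *Eomes* and *Foxa2* were lowest, at 0.09 CPM in their lowest library. The part of these marker changes in the values of the mitoribosome genes was not tested.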

How the data were processed

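RNA-seq of 12 libraries of mouse gastruloids was taken as deposited. The authors trimmed reads with Trim Galore, aligned them with HISAT2 (mm10 in the submitters' processing notes) and, per the paper's methods, removed PCR duplicates with Picard. They deposited estimated counts per RefSeq transcript from StringTie, which apportions reads among overlapping transcripts. Versions, annotation and strand setting are not given in the sources used here. The library kit was directional. All values were whole numbers, so that rounding changed nothing. The deposited tables of the authors' own DESeq2 fold changes and p-values were not used.

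Counts of the 120312 transcripts were summed per gene with the RefSeq table of GRCm38.p6. The 13 proteins of mitochondrial DNA, listed by protein accession, were matched in the same table after the files were seen. The 4 groups were fitted together with edgeR 4.0.16 in R 4.3.3 (TMM, filterByExpr, glmQLFit and glmQLFTest, two-sided). P-values were adjusted by Benjamini-Hochberg over all genes tested, with a threshold of 0.05, and SEs come from the F statistic. Passages were compared in a fit with treatment and passage.

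The labels give the passage of each library, so that passage pairs the groups. Deviations of the 78 members from their group means correlated at 0.105 to 0.754 in the 18 pairs of libraries of the same passage, with a median of 0.59, and had a median of -0.23 in the 36 pairs of other passages and groups. The main fit had no block. The common dispersion was 0.0316, and 0.0063 with passage as a replicate block. Nothing in the labels says how many cultures a passage stands for, so p-values measure the spread between these libraries. Alternatives were median-of-ratios factors, no filter, the block, only the groups compared, DESeq2 1.42.0, the most abundant transcript alone and leaving out each library. Fits were tested on simulated counts drawn with a single common dispersion. Those for treatment had no difference between passages, so they do not show how the fits perform on these libraries. Members and gene lists were chosen with earlier results of these data known.

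Named members are those called in 2-DG against 1x glucose that moved the same way in all 3 passages (at most 12 in each direction), the 5 highest and 5 lowest called against 0x glucose, the 6 with the smallest p between passages, the 5 highest and 5 lowest per kilobase, and 11 named by role. In each other list the 2 called genes with the largest changes were named, except 1 that is not reported here.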

Additional observations from a re-analysis of the deposited data

How the results depend on the processing

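Counts of called members moved with the processing more than their direction did. In 2-DG against 1x glucose, where 14 were called, the paired fit with a replicate block gave 32, no filter on low counts 9, only the groups compared 4 and the most abundant transcript 1, and leaving out a library gave 4 to 13. In the same order 41.3%, 9.01%, 11.5%, 3.88% and 10.04% to 13.6% of all genes were called, and 17.6% in the main fit. In 2-DG against 0x glucose, where 8 were called, the replicate block gave 25, DESeq2 13, no filter 5, only the groups compared 4 and the most abundant transcript 3, and leaving out a library gave 2 to 5. The shares of all genes were 43.1%, 24.2%, 9.79%, 14.5%, 4.61% and 11.8% to 15.1%, and 18.9% in the main fit. Between passages, where 32 were called, the most abundant transcript gave 3, and leaving out a library gave 18 to 32. Of all genes 11.2% and 34.0% to 45.1% were called in these fits, and 46.2% in the fit with all libraries. The other alternatives stayed within 1.5 times, among them DESeq2 in 2-DG against 1x glucose (18, beside 22.6% of all genes). In 0x and 3x glucose 0 members were called under every alternative run. Over all genes, 2990 were called in 2-DG against 1x glucose, 7001 with the replicate block, 1896 with only the groups compared and 653 with the most abundant transcript. Of 168 values of the 14 named members under alternatives, 98 stayed past the threshold in the same direction and 69 kept the direction only. The value of *Mrps31* turned to 0.062 with the most abundant transcript, whose share of the gene varied between 25.7% and 81.1%. The causes were not tested. The lowest count of a member in a library was 572. An exact permutation test of 3 against 3 could not go below p = 0.1.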
